A study of Mus musculus with 6 samples.

Results

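The nuclei described here were picked from single-nucleus RNA sequencing of mouse white adipose tissue by UMI counts of mural cell genes, those of vascular smooth muscle cells and pericytes. A UMI is a molecular tag that counts 1 captured RNA molecule. A nucleus had to pass a filter of more than 500 genes and 1000 UMIs, with mitochondrial UMIs below 15%. It also needed at least 3 UMIs from at least 2 of Notch3, Pdgfrb, Cspg4, Myh11, Acta2 and Tagln, with at least 1 UMI of Notch3 or Myh11. At most 1 UMI was allowed in the sum of Ptprb, Cdh5, Ptprc, Skap1, Pdgfra, Epcam, Upk3b and Plin1, which mark endothelial, immune, stromal, epithelial, mesothelial and fat cells. The rule found 333 of 27074 filtered nuclei, from 50859 barcodes. They are called Notch3/Myh11-gated nuclei, or gated nuclei. This is because the label of smooth muscle and pericyte nuclei did not hold for most in subcutaneous fat at 2 months, or for many at 24 months.

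The 6 libraries came from female C57BL/6J mice with no genotype or treatment given. There were 2 libraries each of young SAT, the inguinal subcutaneous fat of mice aged 2 months, of old SAT, the same depot at 24 months, and of VAT, the gonadal visceral fat at 24 months. For the old mice the series text writes 26 months, but the age in the labels is used here. The labels name adipocytes as the cell type, although the nuclei held many types. The study describes 2 mice per age. Which libraries share a mouse is not stated, so p-values measure only the spread between these libraries.

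Mural cells wrap the endothelial tube of vessels. Smooth muscle cells contract through smooth muscle myosin and actin when calcium enters the cell, and relax through the nitric oxide and cGMP pathway. Pericytes sit on capillaries and depend on PDGF signals from the endothelium, while Notch3 is the Notch receptor of both. Inguinal fat of female mice also holds the mammary gland, whose myoepithelial cells are epithelial cells that carry keratins and p63 together with smooth muscle myosin and actin.

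The rule chose the nuclei by the genes above, so their levels are a description. A gated nucleus held a median of 7 marker UMIs and at most 63. At the edge of the rule, 50 gated nuclei had exactly 3 marker UMIs and 82 nuclei just outside had 2, and 114 gated nuclei had 1 UMI of an excluded gene while 55 nuclei just outside had 2. Myh11, the smooth muscle myosin heavy chain (chr16:14012399-14109236, GRCm39, minus strand), had 1085 UMIs over all gated nuclei and was detected in 78.7% of them. Acta2, smooth muscle actin (chr19:34217737-34232990, minus strand), was detected in 65.2% and Tagln, an actin-binding protein of smooth muscle, in 52.0%. The pericyte-leaning markers were rarer. Notch3 (chr17:32339794-32385893, minus strand) was found in 31.8%, Pdgfrb, the PDGF receptor of pericytes, in 28.2% and Cspg4, the proteoglycan NG2, in 4.20%. In 7937 nuclei gated as immune by Ptprc, Skap1, Dock2 and Ikzf1, the same 6 genes were each found in 0.668% to 1.85%, at a median depth of 1417 UMIs against 1789 in the gated nuclei.

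Per library the gated nuclei had median depths of 1281 to 1941 UMIs, and their summed counts ranged from 28707 UMIs in VAT replicate 2 to 214372 in young SAT replicate 2. Of the 333 barcodes, 9 also occurred in another library and 0 were gated in 2 libraries. Scrublet, a doublet caller, marked only 3 to 14 nuclei per library and none of the gated ones, so it was taken as not having worked. Leaving out the top 5% of scores removed 1 to 5 gated nuclei per library. VAT replicate 2 stood apart by ovary and oviduct genes, with the list of 10 such genes at 2585 CPM (UMIs of a gene per 1000000 UMIs summed over the nuclei) in its other nuclei against 25.1 to 50.3 CPM elsewhere. In its 16 gated nuclei the same list was at 1254 CPM, against 0 to 60.8 CPM in the gated nuclei of the other libraries.

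Most gated nuclei of SAT carried the genes of myoepithelial cells. The list used for these cells was Krt5, Krt14, Krt17, Trp63, Oxtr, Col17a1, Lama3, Cdh3, Dsp and Lgals7, and a nucleus was said to carry it with at least 2 UMIs from at least 2 of these genes, a limit set after the values were seen. In all, 179 of 333 gated nuclei carried the list, 177 of 290 in SAT (61.0%) and 2 of 43 in VAT (4.65%). In young SAT these were 51 of 71 (71.8%, exact 95% interval 59.9% to 81.9%) and 72 of 104 (69.2%, 59.4% to 77.9%). In old SAT they were 16 of 33 (48.5%, 30.8% to 66.5%) and 38 of 82 (46.3%, 35.3% to 57.7%). In VAT they were 0 of 27 (upper limit 12.8%) and 2 of 16 (12.5%, 1.55% to 38.3%). The 2 ages of SAT did not overlap in this share, and both lay above VAT. By the same limit, 0.479% of immune-gated, 0.336% of endothelial-gated and 0.955% of FAP-gated nuclei (fibro-adipogenic progenitors, the stromal cells of fat) carried the list. After each nucleus was thinned to 1000 UMIs, the shares in the 6 gated sets were 66.2%, 59.6%, 39.4%, 36.6%, 0% and 6.25%, in the same order.

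Of the rule's markers, these SAT nuclei held the contractile ones and hardly any of the others. Among the 177, Myh11 was detected in 98.3%, Acta2 in 88.1% and Tagln in 66.7%, whereas Notch3 was detected in 3.95%, Pdgfrb in 5.08% and Cspg4 in 0.565%. The genes with the highest fold over other SAT nuclei, outside the rule, were Cxcl14, a chemokine, Fhod3, a formin that organises actin, the potassium channel Kcnq5, and Prkg1, the cGMP-dependent kinase of smooth muscle. Cxcl14 (chr13:56436352-56444603, minus strand) had 273, 239, 51 and 291 UMIs in the 4 SAT sets of these nuclei, and 8 UMIs in all gated nuclei that carried the pericyte list. Col17a1, a hemidesmosome collagen, Oxtr, the oxytocin receptor, and Lgr5, a stem cell receptor, were also among their 20 leading genes. Nothing in this ranking is a test, since the class was cut by its own genes.

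The pericyte list gave a second, smaller class. With at least 2 UMIs from at least 2 of its 12 genes, among them Rgs5, Kcnj8, Abcc9, Higd1b, Steap4, Vtn, Gucy1a1 and Gucy1b1, and without the myoepithelial list, 61 nuclei were found, 55 of them in SAT and 28 in old SAT replicate 2 alone. Only 2 nuclei carried both lists. In the 55 SAT nuclei Notch3 was detected in 90.9% and Pdgfrb in 89.1%, while Myh11 was detected in 34.5% and Acta2 in 18.2%. Their leading genes were Ccl21a, Rgs5, Pdgfrb, Abcc9 and Csmd1. Ccl21a is a lymphoid chemokine, Rgs5 a G-protein regulator used as a pericyte marker and Abcc9 a subunit of the ATP-sensitive potassium channel. This ranking is no test either, since Rgs5 and Abcc9 are of the list that cut the class and Pdgfrb is of the rule. Most Rgs5 UMIs of gated nuclei came from old SAT replicate 2.

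Ccl21a was among the leading genes of both SAT classes that did not carry the myoepithelial list. It had 182, 158, 35 and 38 UMIs in the SAT nuclei with the pericyte list, in the order of the libraries, and 11, 347, 31 and 51 UMIs in the 58 SAT nuclei with neither list, so that 347 of the 440 UMIs in the latter came from young SAT replicate 2. It had 4 UMIs in all 179 nuclei with the myoepithelial list and 0 UMIs in every VAT gated nucleus. Mice carry near-identical copies of this gene, so its reads may be split among them. Ccl19, a chemokine that acts on the same receptor, had 87 UMIs in the pericyte-list class, 132 in the class with neither list and 0 in the myoepithelial-list class. C3, complement component 3, and Cxcl12, a chemokine of stromal cells, were also among the 20 leading genes of both SAT classes.

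The VAT gated nuclei were mostly of neither list, 35 of 43. Detection in these 35 was 82.9% for Myh11, 68.6% for Acta2, 22.9% for Notch3 and 22.9% for Pdgfrb. The leading genes were ranked over the 41 VAT nuclei without the myoepithelial list, of which 6 carried the pericyte list. Apart from Myh11, the highest folds over other VAT nuclei were in Cacna1c, the pore of the L-type calcium channel, Acta2, Actg2, the enteric smooth muscle actin, Slc8a1, the sodium-calcium exchanger, and Dmd, dystrophin. When each of the 333 nuclei was read by whichever list had more UMIs, 279 leaned to the contractile list, 45 to the pericyte list, 4 were tied above 0 and 5 had 0 of both, and 26 lay within 1 UMI of the boundary.

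**Figure D1:**
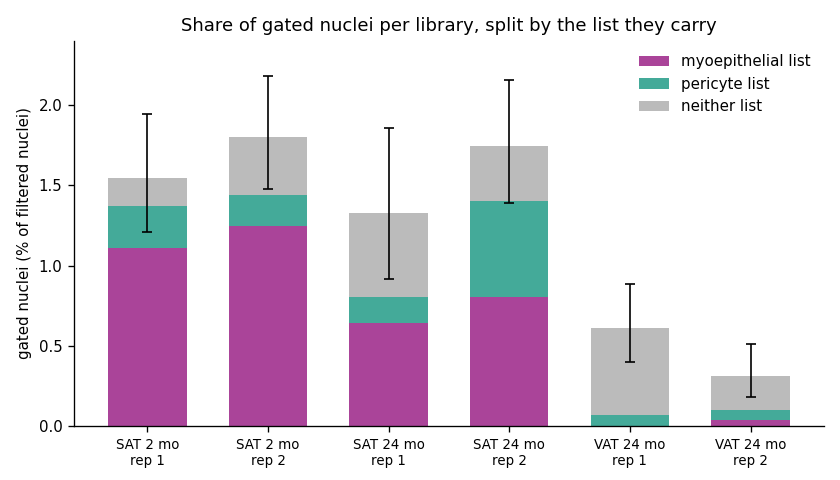
Bars give gated nuclei as a percentage of filtered nuclei in each library, split into nuclei that carried the myoepithelial list, the pericyte list or neither. Error bars are exact 95% intervals of the total, and the myoepithelial-list portion fills most of both young SAT bars and is 0 in VAT replicate 1.

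**Figure D2:**
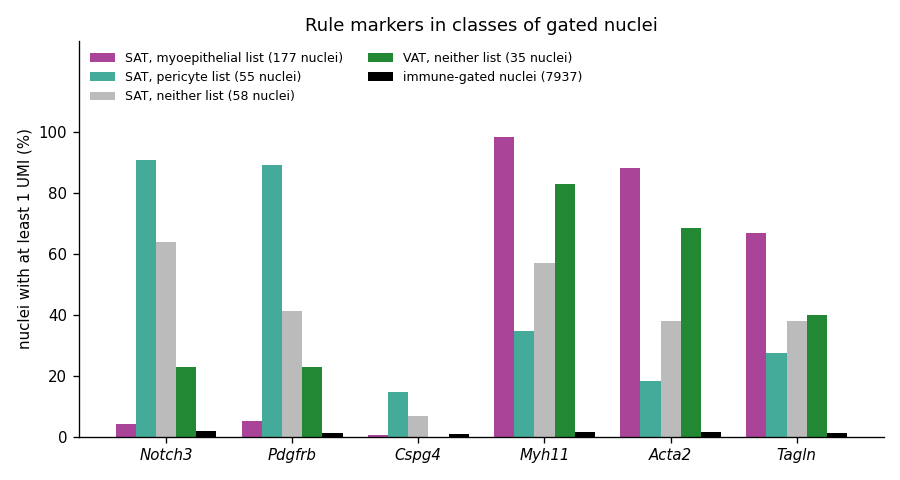
Bars give the percentage of nuclei with at least 1 UMI of each rule marker, by class and depot, with 7937 immune-gated nuclei as background. SAT nuclei with the myoepithelial list held Myh11 in 98.3% and Notch3 in 3.95%, while SAT nuclei with the pericyte list held Notch3 in 90.9%.

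The share of gated nuclei among filtered nuclei was compared between ages and depots. It is not a count of mural cells, because many gated nuclei of SAT carried the myoepithelial list. It was 1.55% (exact 95% interval 1.21% to 1.95%) and 1.80% (1.47% to 2.18%) in young SAT, 1.33% (0.914% to 1.86%) and 1.74% (1.39% to 2.16%) in old SAT, and 0.609% (0.402% to 0.885%) and 0.316% (0.180% to 0.512%) in VAT. The 2 ages of SAT overlapped, with means of 1.67% ± 0.181 (SD, n = 2) and 1.53% ± 0.294 (a difference of -0.140 points, p = 0.67 by a two-sided exact permutation test). With at least 5 marker UMIs required, the difference was -0.379 points and the ages did not overlap (exact permutation test, p = 0.33). VAT lay below old SAT, with a mean of 0.462% ± 0.207 and a difference of -1.07 points (exact permutation test, p = 0.33, the smallest that 2 against 2 libraries allow). These intervals cover counting error only, and a share moves with every other class of the library.

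The total combined differences of opposite sign between its classes. Nuclei that carried the myoepithelial list were 1.11% and 1.25% of filtered nuclei in young SAT and 0.643% and 0.807% at 24 months, a difference of -0.453 points. The remaining gated nuclei were 0.435% and 0.554% at 2 months and 0.683% and 0.934% at 24 months, a difference of 0.314 points. Neither pair of groups overlapped, and the exact permutation test gave p = 0.33 for both, which cannot pass 0.05. Between depots at 24 months the remaining gated nuclei were at 0.683% and 0.934% in SAT and 0.609% and 0.276% in VAT, a difference of -0.366 points in place of -1.07 (exact permutation test, p = 0.33).

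The levels of the lists also differed between libraries. Summed over its 16 genes, the contractile list was at 8635 and 8261 CPM in gated nuclei of young SAT, 5965 and 5719 CPM in old SAT, and 12412 and 10207 CPM in VAT. The other nuclei of the same libraries were at 771 to 1590 CPM. The myoepithelial list was at 3362 and 2967, 2120 and 1971, and 125 and 279 CPM in the gated nuclei, against 50.1 to 437 CPM in other nuclei, so VAT replicate 2 held more of it in its other nuclei than in its gated ones. The pericyte list was at 3559 CPM in old SAT replicate 2 and at 504 to 878 CPM in the other 5 libraries. Rgs5 alone gave 300 of its 365 UMIs in that library, where the other nuclei also held more of it, 280 CPM against 6.39 to 36.3 CPM elsewhere. The whole pericyte list was likewise at 609 CPM in the other nuclei of that library and at 99.5 to 158 CPM in those of the other 5.

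**Figure D3:**
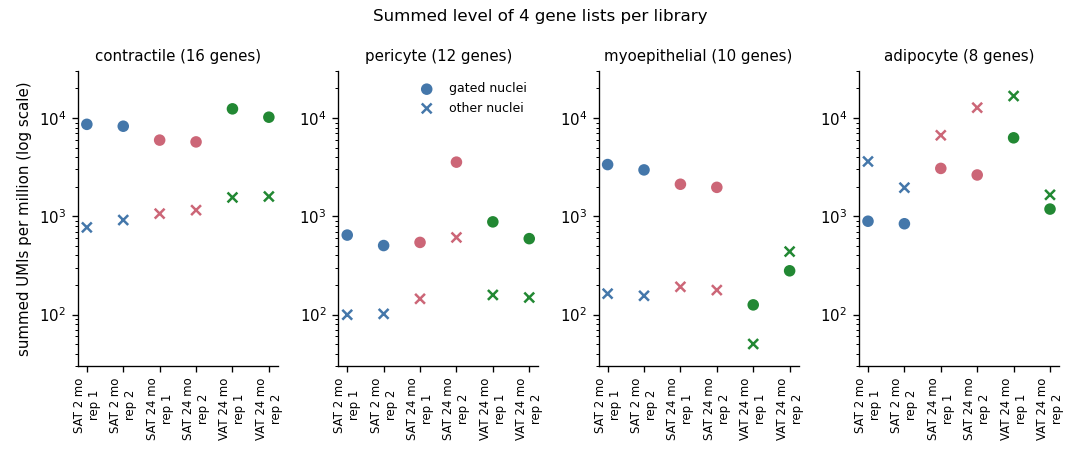
Points give the summed level of 4 gene lists per library in CPM, on a log scale, for gated nuclei (circles) and all other filtered nuclei (crosses), coloured by group. The contractile list lies at 5719 to 12412 in gated nuclei and at 771 to 1590 in the others, and the myoepithelial list falls to 125 and 279 in the VAT gated nuclei.

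To learn which genes outside the rule set the gated nuclei apart, their UMIs were summed per library and compared with all other nuclei of the same library. Of 14130 genes tested, 1998 (14.1%) passed an adjusted p under 0.05 with edgeR's quasi-likelihood test, 857 (6.07%) higher and 1141 (8.08%) lower. The median log2 fold change of all genes was -0.29, and it was -0.40 with TMM scaling and -0.14 with library size alone, so all values are to be read against that shift. Without the myoepithelial list, 941 of 13374 genes (7.04%) passed, 367 higher (2.74%) and 574 lower (4.29%), around a median of -0.50. VAT replicates 1 and 2 gave 27 and 16 of the nuclei, and their sums are shallow.

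Contractile genes rose as a group. All 16 on the list passed the test upwards, against 6.07% of all genes, with a median log2 fold change of 3.65, and 15 did so without the myoepithelial list. Cnn1, calponin, had 286 and 154, 312 and 85.2, and 251 and 174 CPM in the gated nuclei of young SAT, old SAT and VAT, and 1.57 to 5.47 CPM in the other nuclei. It was higher in all 6 libraries without overlap (log2 fold change 5.44 ± 0.39 SE, adjusted p = 6.84e-40 with edgeR). Lmod1, leiomodin (4.81 ± 0.37), Tpm2, a tropomyosin (4.72 ± 0.35), Myl9, a myosin light chain (4.48 ± 0.34) and Smtn, smoothelin (4.28 ± 0.32), followed. Actg2 had the highest value on the list (5.80 ± 0.44) but was higher in 5 of 6 libraries. Synpo2, which binds actin, had the lowest (1.15 ± 0.31, adjusted p = 0.0025 with edgeR). Of the UMIs of Cnn1 in gated nuclei, 83.2% were in the nuclei with the myoepithelial list, and of those of Myl9 51.6%. Over all genes, gated nuclei without that list held 104585 of 368158 UMIs in young SAT. They held 113132 of 225233 in old SAT and 63458 of 68587 in VAT. Such shares of a gene's UMIs are to be read against these.

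One of these genes had a plain CArG box, the binding motif of serum response factor, which with myocardin drives contractile genes, in the 250 bases before its start. The motif was searched as 2 C, 6 of A or T and 2 G, which reads alike on both strands, in RefSeq promoter windows (GRCm38.p6). It was found in 1 of 15 contractile-list genes with a window, 0 of 8 pericyte-list genes and 0 of 6 myoepithelial-list genes, and in 439 of 27025 genes with a window (1.62%). The stretch of Myl9 is shown because Myl9 is among the genes that rose most, with the box in capitals (chr2:156775278-156775337, GRCm38.p6, plus strand).
Myl9: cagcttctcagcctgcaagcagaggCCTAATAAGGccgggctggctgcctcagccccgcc

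The rest of the 15 genes that rose most were of several kinds. Gm30613, a lncRNA (chr5:15743000-15817397, GRCm39, minus strand), was at 949, 718, 279, 694, 125 and 69.7 CPM in the gated nuclei and rose by 5.22 ± 0.38 (log2 fold change, SE), with 94.5% of its UMIs in myoepithelial-list nuclei. Cxcl14 rose by 4.53 ± 0.36, with 95.6% of its UMIs there and 75.2 and 34.8 CPM in the 2 VAT sets against 953 to 1910 CPM in SAT. Ccn2, a matricellular growth factor (4.36 ± 0.35), Postn, periostin (4.10 ± 0.32), and Col7a1, the anchoring fibril collagen (3.98 ± 0.39), had 87.8%, 76.7% and 89.8% of their UMIs in these nuclei. Jph2, which ties the cell membrane to the calcium store (4.88 ± 0.50), and Id4, an inhibitor of DNA binding (4.13 ± 0.42), also rose in all 6 libraries. The 5 largest falls were in Tespa1 and Cd3d, which act in T cell receptor signalling, Dscaml1, the protease Dpp4 and the leukocyte metalloprotease Adam8, each with 2 or 3 UMIs in all gated nuclei. Tespa1 was at 2.90 to 130 CPM in the other nuclei of the 6 libraries and had 2 UMIs in the gated ones. The rule limited the immune genes Ptprc and Skap1, so falls in immune genes were favoured by the selection.

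Of the pericyte genes 7 of 9 tested passed upwards, beside 6.07% of all genes, with a median of 2.81. The count was also 7 of 9 without the myoepithelial list, beside 2.74% of all genes, with a median of 3.66. Gucy1b1, a subunit of the nitric oxide receptor (3.21 ± 0.55), and Abcc9 (3.18 ± 0.37) were among those that rose. Abcc9 was higher in all 6 libraries and reached 4.13 without the myoepithelial list. Steap4, a metalloreductase, was the lowest with at least 10 UMIs, at 0.68 ± 0.36 (adjusted p = 0.226 with edgeR).

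Genes of relaxation and calcium entry were also among those that rose. In the nitric oxide and cGMP list, 7 of 10 genes rose and 1 fell, beside 6.07% and 8.08% of all genes, with a median of 2.26, and the same counts were found without the myoepithelial list. Irag1, the substrate by which cGMP blocks calcium release (163, 117, 164, 213, 903 and 523 CPM in the gated nuclei, 7.25 to 29.0 CPM in others), rose by 4.06 ± 0.34, and Prkg1, its kinase, by 3.52 ± 0.30. Npr3, the natriuretic peptide clearance receptor, which is abundant in fat cells, fell by 1.68 ± 0.38 on the log2 scale. In the calcium and ion channel list, 7 of 14 tested rose, 1 fell and 6 did not pass, beside the same shares of all genes, with a median of 0.92. Cacna1c was at 754, 690, 904, 529, 2056 and 1916 CPM in the gated nuclei and at 33.5 to 70.4 CPM in the others, which did not overlap (log2 fold change 4.00 ± 0.31, adjusted p = 4.82e-35 with edgeR). It stayed at 3.94 without the myoepithelial list. Itpr2, a calcium release channel, fell by 1.22 ± 0.33 on the log2 scale. Of the receptors for vasoactive hormones, 3 of 9 tested rose and 1 fell, beside 6.07% and 8.08% of all genes. Npy1r for neuropeptide Y, S1pr3 for sphingosine 1-phosphate and Ednra for endothelin rose, and Adra1a fell. Without the myoepithelial-list nuclei 4 of 8 rose, with Ptgir for prostacyclin added, beside 2.74% of all genes, and 0 fell.

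In the Notch list 4 of 14 tested genes rose and 1 fell, beside 6.07% and 8.08% of all genes, and 2 rose and 1 (Rbpj) fell without the myoepithelial list, beside 2.74% and 4.29%. Heyl, a target of Notch3 signalling, rose by 3.40 ± 0.64 and was at 4.26 without the myoepithelial list. The ligand genes Dll1 (3.58 ± 0.39) and Jag2 (3.22 ± 0.37) were at 1.88 and 1.22 without it, and only Dll1 then passed the test. Maml2, a coactivator, was at -0.19 without it. Notch1, the endothelial receptor, fell by 1.21 ± 0.42 on the log2 scale, and was at -0.65 and did not pass without the list. In the growth factor list 3 of 11 tested genes rose and 3 fell (Tek, Kdr and Vegfa), beside the same shares of all genes, and 2 rose (Pdgfa and Nrp1) and 0 fell without the myoepithelial list. Pdgfa rose with and without that list (2.07 ± 0.37 and 1.86), whereas Pdgfb (1.77 ± 0.42) and Pdgfc (1.44 ± 0.33) went to -1.02 and -0.70 without it and no longer passed.

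Of 16 basement membrane genes 7 rose and 1 fell, beside 6.07% and 8.08% of all genes, with a median of 0.72, and 3 rose without the myoepithelial list, beside 2.74% (Itga1, Col4a1 and Col4a2). Itga1, the collagen receptor of smooth muscle, rose by 2.65 ± 0.32, but against endothelial-gated nuclei it was at 0.44 ± 0.41 and did not pass. Among transcription regulators, 3 of 14 tested rose, beside 6.07% of all genes. They were Myocd (3.99 ± 0.59), the myocardin coactivator of contractile genes, Tbx2 (2.60 ± 0.50) and Nr2f2 (1.41 ± 0.37). All 3 did so without the myoepithelial list, beside 2.74% of all genes. Myocd rested on 32 UMIs, of which 16 were in VAT. Pparg, the fat cell regulator, and Ebf1 fell, and Ebf1 was at -0.07 without the myoepithelial list.

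Other cell types left a mixed trace. All 12 immune genes and all 8 adipocyte genes fell, with medians of -2.54 and -1.78. Of 9 endothelial genes 3 fell, beside 8.08% of all genes that fell. The rule allowed at most 1 UMI of genes marking these and other cell types. Such falls were thus favoured by the selection and are a description. Without the myoepithelial list, 8 of 12 immune, 6 of 8 adipocyte and 1 of 9 endothelial genes passed downwards, beside 4.29% of all genes. The myoepithelial list rose in 9 of 9 genes tested, beside 6.07% of all genes that rose, from Dsp at 1.81 to Krt5 at 4.89 ± 0.40. In the FAP list 3 of 9 rose (Pdgfrl, Bicc1 and Fbn1), beside 6.07% of all genes, with a median of 0.47. Without the myoepithelial list 4 of 9 rose (Col6a3, Bicc1, Dcn and Col1a1), beside 2.74% of all genes, with a median of 1.08. Of 5 Schwann cell genes tested, Scn7a (2.30 ± 0.34) and Sox10 (1.79 ± 0.43) rose and Mbp fell, beside 6.07% and 8.08% of all genes. Scn7a and Sox10 were at 0.09 and -1.71 without the myoepithelial list. Of the list of 8 luminal epithelial genes, Krt18, Cldn4 and Prlr fell, beside 8.08% of all genes. The mesothelial list gave 3 falls among 5 genes tested, the skeletal muscle list 1 among 5, and the ovary and oviduct list 1 among 4, with 0 rises in each, beside 8.08% of all genes that fell. The list of reproductive tract stroma gave 2 rises among 5 genes tested, Actg2 and Oxtr, and 1 fall, Esr1, beside 6.07% and 8.08% of all genes. Of these only Actg2 passed without the myoepithelial list.

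**Figure D4:**
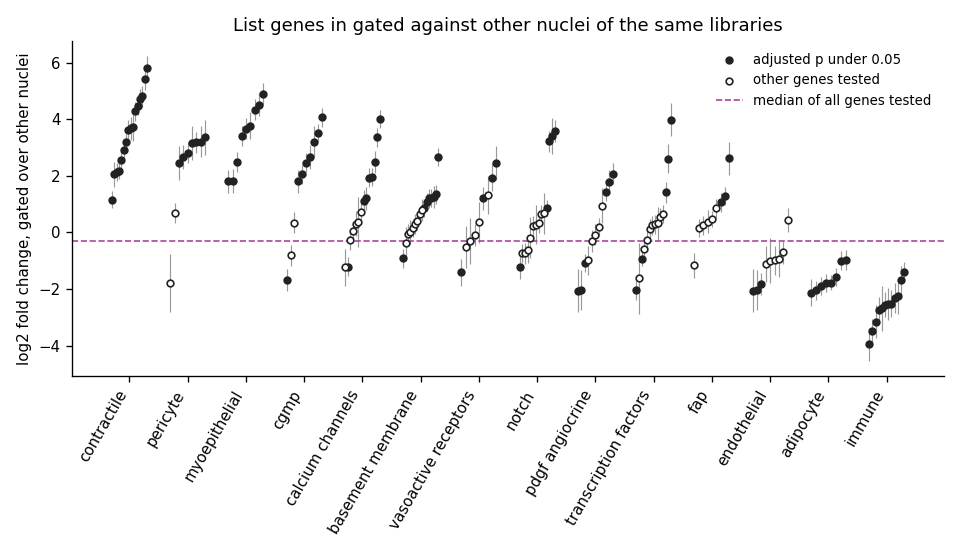
Points give the log2 fold change of each list gene in gated over other nuclei of the same libraries, with its SE. Filled points passed an adjusted p under 0.05, and the dashed line is the median of all genes tested, -0.29. All 16 contractile genes lie above the line and all 12 immune genes below it.

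The nearest neighbours of mural cells in fat are endothelial cells and FAPs, and both were used as a second reference. Against 596 endothelial-gated nuclei (at least 3 UMIs from at least 2 of Ptprb, Cdh5, Pecam1 and Flt1, and at most 1 of the genes of other classes), 570 of 3351 genes (17.0%) passed, 239 higher (7.13%) and 331 lower (9.88%). Of the contractile list 12 of 13 tested were higher, led by Cnn1 (6.59 ± 0.63) with 0.866 CPM in endothelial nuclei. All 7 endothelial genes tested were lower, with a median of -5.28, such as Adgrl4 (-5.28 ± 0.59) and Mecom (-4.29 ± 0.43). The reference was chosen by endothelial genes and the rule limited Ptprb and Cdh5. These falls were thus set by the gates and are a description. Of the FAP list 5 of 6 tested were higher (Bicc1, Col6a3, Col1a1, Col3a1 and Dcn), with a median of 1.76, and so was Scn7a of the Schwann cell list (4.09 ± 0.57). The part of RNA of those cell types in other results was not tested. No basement membrane gene tested passed against endothelial nuclei. Itga1 was at 0.44 ± 0.41 (325 against 384 CPM, adjusted p = 0.555 with edgeR), Col4a1 at 0.01 ± 0.38 and Col4a2 at 0.20 ± 0.40. The PDGF ligands split, as Pdgfc (3.08 ± 0.55) and Pdgfa (1.89 ± 0.48) were higher and Pdgfd (-2.18 ± 0.49) and Pdgfb (-1.71 ± 0.50), the ligand that endothelium sends to pericytes, lower. Of 3 pericyte genes tested 1 was higher, Abcc9 (216 against 58.9 CPM, adjusted p = 0.00179 with edgeR, higher in 6 of 6 libraries). Steap4 was at 1.11 ± 0.41 (adjusted p = 0.0757 with edgeR), and Rgs5 at 0.25 ± 0.53 (adjusted p = 0.818 with edgeR), with 551 CPM in gated and 942 CPM in endothelial nuclei. The endothelial gate also held the pericyte list in 15.4% of nuclei, and in 23.4% of those from old SAT replicate 2.

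Against 733 FAP-gated nuclei (at least 3 UMIs from at least 2 of Pdgfra, Dcn, Fbn1 and Bicc1, with Pdgfra, and the same limit on other classes), 590 of 3772 genes (15.6%) passed, 227 higher (6.02%) and 363 lower (9.62%). All 13 contractile genes tested were higher, led by Lmod1 (7.14 ± 0.59). Of 4 pericyte genes tested 1 was higher, Rgs5 (2.37 ± 0.57), in 5 of 6 libraries. Most of its UMIs in gated nuclei came from old SAT replicate 2. Without the myoepithelial list Rgs5 was not tested, while Abcc9 went from 0.67 ± 0.53 to 1.95 and passed (adjusted p = 0.0269 with edgeR). The 5 FAP genes tested were lower, from Dpt (-4.42 ± 0.57) to Col6a3 (-2.67 ± 0.44). This too was set by the gates, since the reference was chosen by FAP genes and the rule limited Pdgfra. Basement membrane genes went both ways, with Itga1 (2.55 ± 0.32) and Lama5 (2.36 ± 0.34) higher and 6 lower, among them the laminin gene Lama2 (-3.84 ± 0.48) and Nid1, nidogen (-2.93 ± 0.39). Ebf2 and Ebf1, factors of the fat cell lineage, were lower (-2.89 ± 0.47 and -1.75 ± 0.34), but without the myoepithelial list Ebf1 was at -0.66 and no longer passed (adjusted p = 0.0986 with edgeR), while Ebf2 was at -1.81 and passed. Without the myoepithelial list, 169 of 875 genes (19.3%) passed against endothelial nuclei, 64 higher (7.31%) and 105 lower. Against FAP nuclei 184 of 1294 (14.2%) passed, 72 higher (5.56%) and 112 lower (8.66%).

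The depot comparison asked how gated nuclei of VAT differ from those of old SAT. With edgeR, 53 of 3676 genes (1.44%) passed, 25 higher in VAT (0.680%) and 28 lower (0.762%), and 61 and 45 with DESeq2. The median of all genes was -0.13 and was -0.05 with DESeq2. The count was 172 without old SAT replicate 1, 154 without VAT replicate 2, and 71 and 72 without the other libraries compared. The 2 VAT sets held 68587 UMIs in 43 nuclei, so 3 UMIs over the group, taken as the limit for a gene at 0, equal 43.7 CPM.

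Of the 10 genes named among the 28 lower in VAT, 8 had most of their UMIs in the myoepithelial-list nuclei. Over all genes, the gated nuclei without that list held 104585 of 368158 UMIs in young SAT and 113132 of 225233 in old SAT. Krt5, the basal keratin (chr15:101615505-101621346, GRCm39, minus strand), had 60, 71, 27 and 38 UMIs in the SAT sets and 0 in both VAT sets, so it was at least 6.60-fold lower in VAT than in old SAT (adjusted p = 0.028 with edgeR). Brinp3 (29, 46, 47 and 283 UMIs, then 0 and 0) was at least 33.5-fold lower and Itprid1 (235, 170, 65 and 176, then 0 and 0) at least 24.5-fold lower. Ntng1, BC006965, Irx2, Vav3 and Tfap2b were also at 0 UMIs in VAT, with bounds of 5.28-fold in Tfap2b to 10.5-fold in Ntng1. Between 86.9% and 100% of the UMIs of these 8 genes were in the myoepithelial-list nuclei. Several were also lower in the other nuclei of VAT, such as Irx2, a homeobox gene, at 0.281 and 0.393 CPM against 119 and 80.4 CPM in old SAT. Ccl21a (66 and 89 UMIs at 24 months) and Mfge8, a milk fat globule protein (30 and 92), were at 0 in VAT too and at least 15.7-fold and 12.4-fold lower, with 0.467% and 23.4% of their UMIs in those nuclei. Of 9 myoepithelial-list genes tested, 3 (Krt5, Col17a1 and Trp63) were called lower, beside 0.762% of all genes, and 6 did not pass, among them Lgals7 at 1.42 ± 1.19.

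Cacnb2 was among the 10 genes with the largest rise in VAT. This gene of the beta subunit of the L-type calcium channel (chr2:14607899-14994127, plus strand) was at 6.50 and 23.3 CPM in young SAT, 65.7 and 30.4 CPM in old SAT, and 1680 and 1393 CPM in VAT. It differed by 5.19 ± 0.56 (log2 fold change, SE, adjusted p = 0.00294 with edgeR), without overlap. In the other nuclei of VAT it was at 27.8 CPM in replicate 1 and 938 CPM in replicate 2, whose part in the result was not tested. Myom1, a myomesin of muscle (4.02 ± 0.64), Adam33, a metalloprotease (4.43 ± 0.70), Asic2, a proton-gated ion channel (4.93 ± 0.71), and the phosphatase Ptprd (3.70 ± 0.59) were also among the 10 largest. Sema3a, a guidance cue, had 2 and 1 UMIs in old SAT and 25 and 4 in VAT, and Gm20754 had 1 and 0 against 19 and 12. Actg2 and Synpo2 were the contractile genes called, both higher, and Cacnb2 and Slc8a1 the calcium genes, out of 16 and 11 tested, beside 0.680% of all genes that were higher. Meis1 and Meis2, homeobox factors, were called higher among 11 regulators tested. Synpo2 (1.58), Meis1 (1.76) and Meis2 (2.67) no longer passed without the myoepithelial list.

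Wt1, the Wilms tumour factor found in mesothelium and visceral stroma, had 0 UMIs in all 4 SAT sets and 9 and 12 in VAT, at least 23.0-fold higher than old SAT (adjusted p = 0.0436 with edgeR). Its other nuclei in VAT were at 51.5 and 508 CPM, against 0.619 to 2.41 CPM in SAT, so it marked the depot beyond the gated nuclei. Wt1os, the antisense gene next to it, had 8 and 12 UMIs in VAT. The 2 genes overlap only at their starts, and how strand was counted is not given, so reads from that stretch alone cannot be assigned. Rxfp1, the relaxin receptor, had 0, 1, 0 and 0 UMIs in SAT and 13 and 8 in VAT, at least 23.0-fold higher, and was at 1.33 to 5.34 CPM in other nuclei of all libraries.

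When the myoepithelial-list nuclei were left out, 7 of 887 genes (0.789%) passed between depots, 4 higher (0.451%) and 3 lower (0.338%), and 6 were among the 53. Cacnb2 (log2 fold change 4.25), Adam33 (3.77), Actg2 and Slc8a1 (3.31) were higher in VAT, and Ccl21a, Ccl19 and Mfge8 lower. Actg2 had 0 and 1 UMIs in old SAT and 29 and 10 in VAT. Ccl19 had 44 and 16 UMIs in old SAT and 0 in VAT. The fit tested fewer genes because the sums were smaller, with 113132 UMIs in old SAT and 63458 in VAT.

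**Figure D5:**
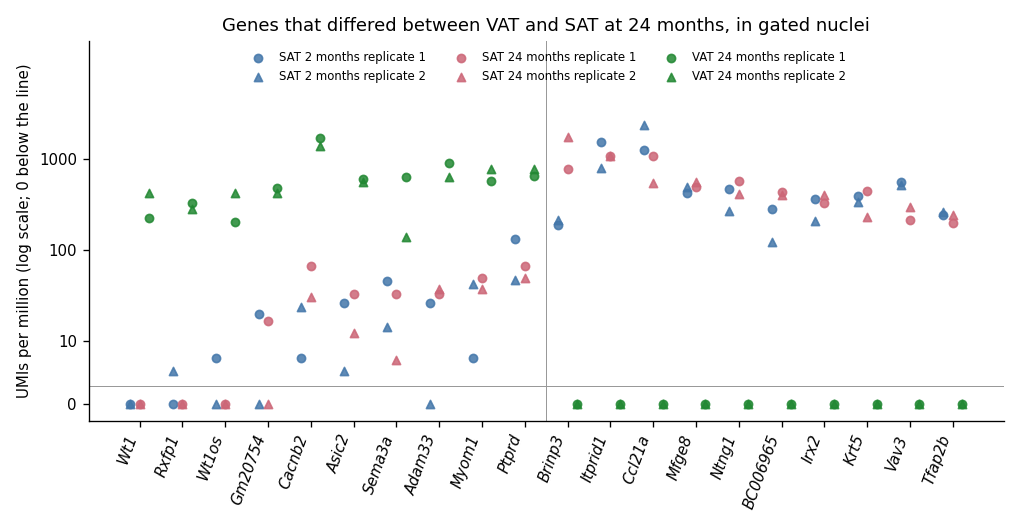
Points give CPM in the gated nuclei of each library, on a log scale with 0 drawn under the line, for the 10 genes most higher (left) and most lower (right) in VAT than in old SAT. The right-hand genes are at 0 in both VAT libraries, and Cacnb2 is at 1680 and 1393 in VAT against 65.7 and 30.4 in old SAT.

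The age comparison asked how gated nuclei of SAT differ between 24 and 2 months. With edgeR, 0 of 3676 genes (0%) passed, while 370 (10.1%) had an unadjusted p under 0.05, and DESeq2 called 27. The 16 contractile genes had a median log2 fold change of -0.48 and the 6 pericyte genes tested 2.20, against 0.00 for all genes, and 0 of either passed. Without the myoepithelial list the medians were 0.18 over 11 contractile genes, with the sign turned, and 0.58 over 3 pericyte genes, against -0.02 for all genes. The pericyte list was at 3559 CPM in old SAT replicate 2 and at 542 CPM in old SAT replicate 1, against 644 and 504 CPM in young SAT. Without old SAT replicate 1, 73 genes passed, and 2 to 12 without any other library. Without the myoepithelial list 0 of 887 genes passed, while 104 had an unadjusted p under 0.05.

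The 3 genes with the smallest p in each direction are given as values. Rgcc, a cell cycle regulator, had 3 and 3 UMIs at 2 months and 17 and 34 at 24 months (log2 fold change 3.82 ± 0.56, adjusted p = 0.0705 with edgeR). Other nuclei had 167 and 107 against 342 and 870 CPM. Aoc3, an amine oxidase of fat and smooth muscle cells, was at 45.5 and 65.3 against 246 and 371 CPM, with 72.8 and 25.1 against 149 and 593 CPM in other nuclei. Brinp3 was at 189 and 215 against 772 and 1722 CPM, with 21.2 and 17.1 against 51.3 and 27.2 CPM in other nuclei.

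In the other direction stood Coro1a, Acap1 and Il17b. Coro1a, an actin-binding protein of leukocytes, was at 195 and 205 CPM at 2 months and 16.4 and 6.08 CPM at 24 months, with 614 and 698 against 214 and 72.0 CPM in other nuclei. Acap1 had 25 and 41 UMIs at 2 months and 0 at 24 months, with 405 and 508 against 126 and 35.8 CPM in other nuclei. Il17b, a cytokine, was at 215 and 191 against 16.4 and 12.2 CPM, and 97.4% of its UMIs were in myoepithelial-list nuclei. The adipocyte list was at 891 and 840 CPM in gated nuclei at 2 months and 3073 and 2634 CPM at 24 months, and at 3614 and 1956 against 6678 and 12763 CPM in other nuclei. The part of RNA from other cells in these values was not tested.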

How the data were processed

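Nuclear RNA was measured in 6 libraries. The authors deposited raw UMI counts per gene and barcode, without normalization, made with the Singleron GEXSCOPE kit and Celescope on GRCm39. The version and annotation are not given in the sources used here. Gene positions came from GENCODE M39. Gated nuclei were found by the rule with Python 3.11.15, and counts were summed per library, since nuclei are not replicates. The gated nuclei, lists and tests were chosen with earlier results of these data known. With R 4.3.3, edgeR 4.0.16 fitted quasi-likelihood models (TMMwsp scaling, filterByExpr, Benjamini-Hochberg, adjusted p under 0.05), with 3 groups of 2 libraries for age and depot, and library as a block against other nuclei. The 14 rule genes and those of either gate were not tested. DESeq2 1.42.0 was an alternative. Shares were compared by exact permutation. Named genes were the 15 largest rises (at least 20 UMIs in gated nuclei) and 5 largest falls (at least 50 CPM in others) changed alike in every library, the 10 largest depot changes per direction, the 3 smallest age p per direction, and list genes with at least 10 UMIs at the ends of each list, others being chosen after their values were seen. The fits were tested on simulated counts. Some list genes are not reported here by name.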

Additional observations from a re-analysis of the deposited data

Results flagged for a closer look

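Barcodes below the minimum of genes or UMIs were outside every comparison, and 185 of them met the marker and exclusion conditions of the rule. They were 23 and 30 barcodes in young SAT, 32 and 51 in old SAT, and 41 and 8 in VAT. That is 0.150% of the barcodes below the minimum in VAT replicate 2 and 0.716% to 1.35% in the other libraries, above the 0.0564% to 0.135% that 3 barcodes would make.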

How the results depend on the processing

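The share of gated nuclei in old against young SAT (-0.140 points) turned to 0.150 points with 0 UMIs of excluded genes allowed and to 0.314 points without the myoepithelial list, and ranged from -0.348 to 0.0685 points with 1 library left out (0.0685 without old SAT replicate 1). It was -0.379 points with at least 5 marker UMIs. The VAT difference (-1.07 points) was -0.654 points with at least 5 marker UMIs, -0.722 after thinning, -0.756 with no minimum of genes or UMIs, -0.366 without the myoepithelial list, and -1.28 to -0.863 with 1 library left out. The number of genes called for age (0) was 27 with DESeq2, 70 without the filter on low counts, 12 with at least 5 marker UMIs and 22 with 4 libraries alone, and 2 to 73 with 1 library left out. For depot (53) it was 106 with DESeq2, 135 without the filter, 7 without the myoepithelial list and 26 with 4 libraries alone, and 71 to 172 with 1 library left out. Against other nuclei (1998) it was 941 without the myoepithelial list, 464 with no library block and 1156 to 2210 with 1 library left out (1156 and 1199 without young SAT replicates 1 and 2, 1300 without old SAT replicate 2). Against endothelial nuclei (570) it was 1136 without the filter, 169 without the myoepithelial list and 335 to 669 with 1 library left out (335 without old SAT replicate 2), and against FAP nuclei (590) 979, 184 and 351 to 697 (351 and 361 without young SAT replicates 1 and 2, 357 without old SAT replicate 2). Fewer genes were tested without the myoepithelial list. The other causes were not tested.

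With the replicate number as a block, age gave 3 calls and depot 30, of which 28 were among the 53, and the share differences were -0.140 and -1.07 points. The numbers did not pair the libraries by the correlation of deviations over 3676 genes, -0.09 and 0.02. Without the myoepithelial list, 10 gene values against other nuclei changed sign, Maml2 (-0.19), Pdgfb (-1.02), Pdgfc (-0.70), Sox10 (-1.71), Trp63 (-0.62), Oxtr (-0.14), Lama3 (-0.20), Cdh3 (-1.24), Dsp (-1.13) and Lgals7 (-3.88), the last 6 being genes by which nuclei were left out. Single genes were followed only against other nuclei (121 results) and between depots (28), where no other sign change was found among the alternatives that could be fitted for each gene. Single genes of the age, endothelial and FAP comparisons were not followed, apart from the fit without the myoepithelial list. In the 43 VAT nuclei, 3 UMIs equal 43.7 CPM, which limits the depot fit.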
